A study of Mus musculus with 1376 samples.

Results

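Lgr5-Pappa2 cells are a small population of single cells from dissociated mouse lung that share high levels of several transcripts among Lgr5, Pappa2, Trim67, Rbfox1, Wnt11 and Igfbp3. A cell was taken as a member if at least 3 of these 6 genes reached 20 CPM (the gene's read count scaled to the total count of that cell). This held for 61 cells, or 4.43% of all cells, and the 1315 cells outside the rule were the other cells. The members were chosen by the levels of these 6 genes, which are therefore described here without a test result. The cells come from 3 adult mice of the strain ACTA2GFP:CSPG4dsRED, whose name points to a GFP reporter on Acta2, the smooth muscle actin gene, and a dsRED reporter on Cspg4, the gene of NG2. The labels name no treatment. Male mouse 1 (2 plates) supplied 47.5% of the cells, male mouse 2 supplied 25.6% and female mouse 1 supplied 26.96% (1 plate each). Ages are stated only as a range, 8 to 30 weeks with the samples and 8 to 21 weeks with the series. The series text mentions only males, yet 1 mouse carries a female label, and the extraction text speaks of heart while the tissue is labelled lung. Single cells were sorted into 384-well plates and read by Smart-Seq2, which sequences full-length cDNA without molecular identifiers. The sort gate is not stated, and it can set the share of a population. Sex, mouse and plate cannot be told apart, because 1 mouse is female and no plate holds 2 mice.

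Lgr5 is a receptor for R-spondins, secreted proteins that raise the response of a cell to Wnt ligands, and it is best known as a mark of stem cells in the gut. Wnt11 is a Wnt ligand that acts mainly through pathways without beta-catenin. Pappa2 is a secreted protease that cuts insulin-like growth factor (IGF) binding proteins, and Igfbp3 is among the proteins it cuts, which releases IGF. Trim67 belongs to the TRIM family of ubiquitin ligases and Rbfox1 is an RNA-binding regulator of splicing, both studied mostly in neurons. Myofibroblasts of the alveolus are contractile fibroblasts that lay down elastin while the air sacs form, and smooth muscle of the airways and vessels shares much of their contractile machinery.

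The promoters of the rule genes were searched for the core letters bound by the TCF and LEF factors, through which Wnt signals with beta-catenin act on genes. The search covered CTTTGA on both strands in 300 bases, from 250 before to 50 after each RefSeq gene start (GRCm38.p6). Of 32851 such promoters in the table, 5257 held CTTTGA on either strand. Of the 7 promoters that the table gives for Pappa2, Trim67, Rbfox1, Wnt11 and Igfbp3, the first start of Wnt11 and the first start of Rbfox1 held it, and Lgr5 has no entry. Both are shown 5′ to 3′ on the strand of the gene because they are the rule-gene promoters with a match, and the capitals mark the match, which in Wnt11 reads as the reverse complement.
Wnt11, chr7:98834862-98835161, plus strand: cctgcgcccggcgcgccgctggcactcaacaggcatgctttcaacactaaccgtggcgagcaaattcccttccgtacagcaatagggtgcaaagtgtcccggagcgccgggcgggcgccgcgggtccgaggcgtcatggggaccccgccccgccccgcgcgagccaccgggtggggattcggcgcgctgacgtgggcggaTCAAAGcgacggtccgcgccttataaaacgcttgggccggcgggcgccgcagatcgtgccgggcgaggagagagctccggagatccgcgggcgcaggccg
Rbfox1, chr16:5884543-5884842, plus strand: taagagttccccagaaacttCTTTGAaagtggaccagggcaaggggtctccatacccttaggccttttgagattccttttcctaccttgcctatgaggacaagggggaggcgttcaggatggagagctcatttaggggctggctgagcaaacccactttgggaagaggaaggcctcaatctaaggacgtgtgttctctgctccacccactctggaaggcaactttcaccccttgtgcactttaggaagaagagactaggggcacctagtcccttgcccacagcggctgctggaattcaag
The match begins 50 bases before the gene start in Wnt11 and 230 bases before it in Rbfox1. The promoters of Pappa2, Trim67 and Igfbp3 and the second starts of Rbfox1 and Wnt11 held no match in these windows, nor did those of Hhip and Aspn, which are described below. A match in the letters is a description of the sequence and not evidence of binding.

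The members were sequenced about as deeply as the rest. Lgr5-Pappa2 cells had a median of 210624 counts (79955 to 712645) and 3913 genes with a count, and the other cells a median of 231037 counts and 4355 genes. Mitochondrial genes took a median of 1.16% of the counts in Lgr5-Pappa2 cells and 1.48% in other cells. At the shallowest depth in the table, 50835 counts, 20 CPM is about 1 read, so a gene that misses 20 CPM in a cell may be undetected rather than silent. Members were 1.53% of all cells in male mouse 1 (10 cells, exact 95% binomial interval 0.737% to 2.80%), 8.81% of male mouse 2 (31 cells, 6.06% to 12.3%) and 5.39% of female mouse 1 (20 cells, 3.32% to 8.20%). The interval of male mouse 1 lies below that of both other mice, and the intervals cover counting error only. The 2 plates of male mouse 1 gave 5 members each.

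Among the rule genes, Igfbp3 and Lgr5 were the most widely detected and the other 4 were patchy from cell to cell. Igfbp3 (chr11:7206086-7213923, minus strand, GRCm38) reached 20 CPM in 58 of 61 Lgr5-Pappa2 cells, at a median of 4112 CPM and at most 14705 CPM, and in 27.3% of the other cells. It was thus the least selective of the rule genes. Lgr5 (chr10:115450311-115587780, minus strand) reached 20 CPM in 52 of 61 Lgr5-Pappa2 cells, with a median of 980.3 CPM and a highest value of 4944 CPM, and in 37 of 1315 other cells. Pappa2 (chr1:158711727-158980490, minus strand) did so in 42 of 61 Lgr5-Pappa2 cells, with a median of 170.5 CPM and a highest value of 3296 CPM, and in 26 of 1315 other cells. Trim67 (chr8:124793092-124834713, plus strand), Rbfox1 (chr16:5885355-7411526, plus strand) and Wnt11 (chr7:98835112-98855195, plus strand) each had a median of 0 CPM in Lgr5-Pappa2 cells. Trim67 reached 20 CPM in 21 Lgr5-Pappa2 cells against 7 other cells, Rbfox1 in 25 against 19 and Wnt11 in 23 against 20.

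The rule genes met in varied combinations. The commonest was Lgr5 with Pappa2 and Igfbp3 alone, in 14 cells, and 1 cell carried all 6 genes. Lgr5 and Pappa2 were found together in 35 of the 61 cells, and 50 of the 52 cells with Lgr5 also had Igfbp3. Levels were alike in the 3 mice for Lgr5 and Igfbp3 and less so for the rarer genes. Values by mouse are given from here on in the order male mouse 1, male mouse 2 and female mouse 1. With the counts of a mouse's cells summed, Lgr5 stood at 1510.2, 1646 and 1561 CPM in Lgr5-Pappa2 cells, against 7.89, 20.8 and 54.99 CPM in other cells. Igfbp3 stood at 4178, 5279.6 and 4084 CPM in Lgr5-Pappa2 cells, against 161.8, 314.2 and 282.6 CPM in other cells. Pappa2 stood at 1038, 537.3 and 621.5 CPM in Lgr5-Pappa2 cells, against 6.49, 15.03 and 4.59 CPM in other cells. Of the patchy genes, Trim67 averaged 319.1 ± 137.6 CPM in Lgr5-Pappa2 cells and 2.95 ± 0.785 CPM in other cells (SD, n = 3 mice). Rbfox1 stood at 266.02, 96.03 and 40.97 CPM in Lgr5-Pappa2 cells, against 2.67, 4.62 and 1.41 CPM in other cells. Wnt11 stood at 108.95, 36.7 and 186.7 CPM in Lgr5-Pappa2 cells, against 2.3, 4.69 and 3.16 CPM in other cells. The other cells of female mouse 1 had more Lgr5 than those of the male mice.

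**Figure D1:**
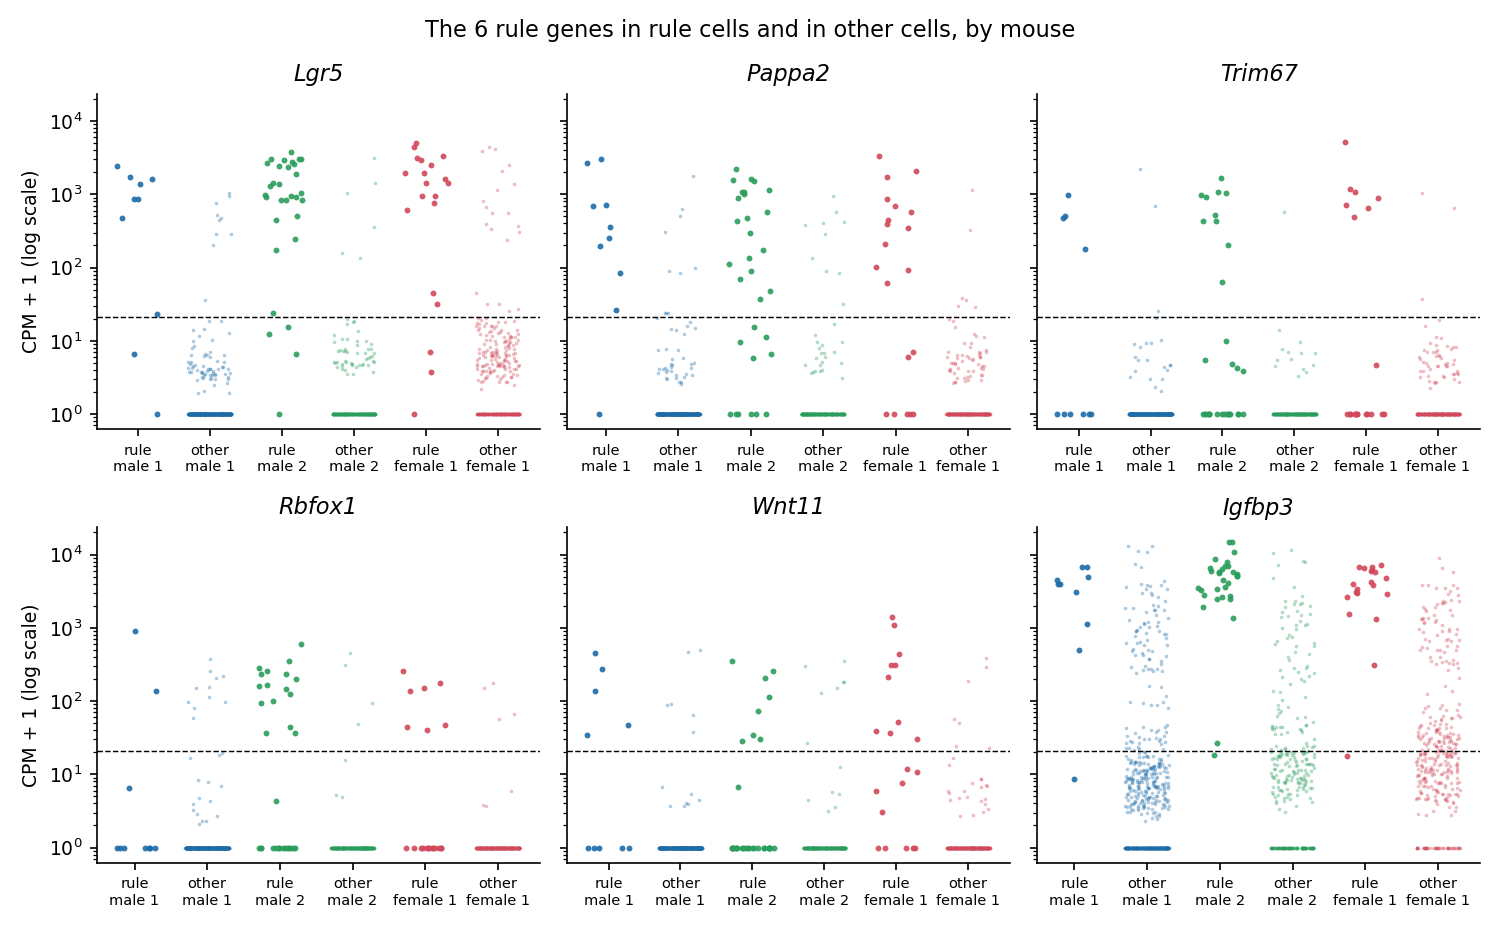
Level of each rule gene per cell (CPM + 1, log scale) in rule cells, which are the Lgr5-Pappa2 cells, and in other cells of each mouse. Each point is 1 cell and the dashed line marks 20 CPM. Lgr5 and Igfbp3 lie above the line in most Lgr5-Pappa2 cells of all 3 mice, while Trim67, Rbfox1 and Wnt11 lie at 0 in many of them.

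The rule itself sets the levels of its genes on either side of the threshold, and these are given as a description. The 35 members with exactly 3 rule genes had a median of 926 CPM of Lgr5, and the 61 cells outside the rule with 2 rule genes had 6.02 CPM. For Igfbp3 the medians were 4275 CPM with 3 rule genes and 893 CPM with 2. Hhip, which was not in the rule, had a median of 6683 CPM with 3 rule genes and 2627 CPM with 2, and 6758 CPM in the 26 members with 4 to 6 rule genes. The cells with 2 rule genes remain among the other cells below.

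Markers known for alveolar myofibroblasts were checked next, because that is the name under which these cells were proposed. Of 12 such markers, 9 reached 20 CPM in at least 50% of the Lgr5-Pappa2 cells, namely Hhip, Aspn, Tgfbi, Acta2, Tagln, Myh11, Eln, Enpp2 and Wnt5a. The 3 that did not were Pdgfra, a growth factor receptor often used to define these cells, in 2 cells, the growth factor Fgf18 in 15 cells and the secreted hormone Stc1 in 6 cells. The number of these 12 that passed was 8, 8 and 9 by mouse. Myh11 passed narrowly, with a median of 25.2 CPM over all members and 19.8 CPM in male mouse 2. Acta2, Tagln and Myh11 are smooth muscle genes as well. Of 6 airway smooth muscle markers, 4 passed the same bar, both over all members and in each mouse, namely the intermediate filament gene Des (49 cells), Actc1 (38 cells), Actg2 (38 cells) and Lgr6 (33 cells). Sbspon reached 20 CPM in 17 cells and Bdkrb1 in 0. The summed level of these 6 had a median of 1223 CPM in Lgr5-Pappa2 cells and 4428 CPM in other cells. The markers thus include most of the alveolar myofibroblast list but not Pdgfra, and most of the airway smooth muscle list, so the cells are called by their genes.

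Of alveolar fibroblast markers 1 of 10 passed the same bar, with the factor Tcf21 at 20 CPM in 0 of 61 cells, which allows up to 4.92% of cells. None of 9 vascular smooth muscle, 12 epithelial, 12 leukocyte, 5 mesothelial and 7 Schwann cell markers did, and Epcam, Foxj1, Marco, Cd3e, Nkg7, Sox10 and Foxd3 had no count in any Lgr5-Pappa2 cell. The summed level of the 9 vascular markers had a median of 13.9 CPM in Lgr5-Pappa2 cells and 1538 CPM in other cells. Of 10 endothelial markers, Ramp2 alone passed the bar.

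Some markers used for other fibroblasts and pericytes were common in the members. Of 10 adventitial fibroblast markers, the matrix genes Dcn (58 cells), Dpt (54 cells) and Col14a1 (39 cells) reached 20 CPM in most of the 61 cells. The adventitial markers Pi16, in 5 cells, and Clec3b and Ccl11, in 0 cells, did not. The summed level of the 10 had a median of 3693 CPM in Lgr5-Pappa2 cells and 134.9 CPM in other cells. Of 10 pericyte markers, the potassium channel subunits Kcnj8 (46 cells) and Abcc9 (38 cells) were common, and the summed level was lower in Lgr5-Pappa2 cells (median 1429 CPM) than in other cells (2477 CPM).

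To compare the members with the rest of the lung cells, counts were summed per mouse over members and over all other cells, and tested with the mouse as a block by edgeR's quasi-likelihood test. At a Benjamini-Hochberg adjusted p under 0.05, 0.642% of the 16814 genes tested were called, 45 higher (0.268%) and 63 lower (0.375%) in Lgr5-Pappa2 cells. The median log2 fold change over all genes tested was -0.71. Errors of log2 fold changes are standard errors, and a positive value means higher in Lgr5-Pappa2 cells. The rule genes had been picked as leading genes of a cluster of these cells, so the p-values only set a difference against its spread over the 3 mice. The calls included Hhip, Enpp2, Wnt5a and Aspn, which were higher in the members, and Notch3, Heyl, Itga8 and Myh11, which were lower. A call and a lack of overlap between the 3 sums of members and the 3 sums of other cells are not the same, since 24.7% of the genes tested did not overlap.

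Hhip, a membrane protein that binds hedgehog ligands and dampens their signal, was found in every member. It lay between 873 and 15815 CPM in single members with a median of 6683 CPM. By mouse it stood at 6999.7, 7457 and 6081 CPM in Lgr5-Pappa2 cells, against 419.8, 367.5 and 605.5 CPM in other cells (log2 fold change 3.91 ± 0.24, edgeR adjusted p = 0.00054). Enpp2 encodes autotaxin, the secreted enzyme that makes the signalling lipid lysophosphatidic acid. It was likewise found in every member, at 553.1 CPM or more, and stood at 5251, 6368 and 2983 CPM in Lgr5-Pappa2 cells, against 482.5, 511.4 and 337.1 CPM in other cells (log2 fold change 3.41 ± 0.20, edgeR adjusted p = 0.00054). For Hhip (chr8:79965851-80058006) and Enpp2 (chr15:54838901-54952892) alike, the lowest sum of a mouse's members lay above the highest sum of a mouse's other cells. The sums likewise did not overlap for 24.7% of all genes tested. Single cells did overlap for Hhip, as some other cells had more of it than the lowest member. Per kilobase of exon, the mean level in Lgr5-Pappa2 cells was 754 CPM for Hhip, 842 CPM for Enpp2 and 153.2 CPM for Lgr5.

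Single members of the Wnt, IGF and bone morphogenetic protein lists were also higher. Wnt5a, a Wnt ligand that signals mostly without beta-catenin, stood at 618.7, 1087 and 1155 CPM in Lgr5-Pappa2 cells, against 66.1, 68.1 and 112.9 CPM in other cells (log2 fold change 3.53 ± 0.33, edgeR adjusted p = 0.003). It was the only called gene of 7 Wnt ligands tested, as Igfbp5 was of 18 IGF axis genes. Igfbp5, another IGF-binding protein that Pappa2 cuts, stood at 2458, 2486 and 1850.4 CPM in Lgr5-Pappa2 cells, against 582.1, 500.7 and 308.2 CPM in other cells (log2 fold change 2.33 ± 0.23, edgeR adjusted p = 0.0031). In the bone morphogenetic protein (BMP) family, the ligand Bmp5 stood at 1793, 1783 and 908 CPM in Lgr5-Pappa2 cells, against 146.3, 369.9 and 111.3 CPM in other cells (log2 fold change 2.97 ± 0.33, edgeR adjusted p = 0.0059). All 3 mice showed each of these differences. The sums of members and of other cells did not overlap for any of these 3 genes, nor for 24.7% of all genes tested. Of 37 genes of the TGF-beta and BMP pathways, 3 were higher and 0 lower, among them Bmp5 and the co-receptor Tgfbr3 (log2 fold change 2.09). Over all genes tested, 0.268% were higher and 0.375% lower.

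Matrix genes moved in both directions. Of 33 proteoglycan and matricellular genes tested, 5 were higher and 5 lower, where 0.268% of all genes tested were higher and 0.375% lower. The small proteoglycan Aspn, an alveolar myofibroblast marker, stood at 3380.0, 3578 and 910.0 CPM in Lgr5-Pappa2 cells, against 313.3, 443.6 and 172.8 CPM in other cells (log2 fold change 2.95 ± 0.27, edgeR adjusted p = 0.0028). Lum, a related proteoglycan that binds collagen fibrils, stood at 3652, 3256 and 709 CPM in Lgr5-Pappa2 cells, against 90.7, 258.2 and 59.1 CPM in other cells (log2 fold change 4.18 ± 0.40, edgeR adjusted p = 0.003). Both were lowest in the members of female mouse 1. Tgfbi, a matrix protein induced by TGF-beta, stood at 1604, 1823 and 2059.6 CPM in Lgr5-Pappa2 cells, against 234.4, 133.6 and 336.4 CPM in other cells (log2 fold change 3.05 ± 0.31, edgeR adjusted p = 0.0039). The fibrillar collagen gene Col3a1 stood at 4999, 7046 and 9091 CPM in Lgr5-Pappa2 cells, against 1054, 1929 and 3643 CPM in other cells (log2 fold change 1.81 ± 0.20, edgeR adjusted p = 0.0059), and it was called with Col1a1 among 28 collagen genes. Of 39 matrix proteases and their inhibitors, 3 were higher and 1 lower, with log2 fold changes of 2.11 for Plat, 1.99 for Pamr1 and 2.64 for Adamtsl2. Plat is tissue plasminogen activator.

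Receptors and other surface proteins were among the higher genes. Gper1, a G protein-coupled receptor for oestrogen, stood at 819.9, 473.2 and 704 CPM in Lgr5-Pappa2 cells, against 25.3, 13.3 and 40.1 CPM in other cells (log2 fold change 4.77 ± 0.41, edgeR adjusted p = 0.0025). P2ry14, a receptor for UDP-sugars, stood at 1211, 1483 and 775 CPM in Lgr5-Pappa2 cells, against 222.2, 192.4 and 169.4 CPM in other cells (log2 fold change 2.53 ± 0.29, edgeR adjusted p = 0.0065), and Gja1, the gap junction protein connexin 43, had a log2 fold change of 2.66. S100b, a calcium-binding protein often used as a glial mark, had one of 4.31 and reached 20 CPM in 26 members although Sox10 and Foxd3 had no count. Other genes with large fold changes were Pcsk5, a proprotein convertase, at 3.14, Fxyd6, a regulator of the sodium pump, at 2.98 and P4ha3, a subunit of the enzyme that hydroxylates collagen, at 3.46.

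Among the lower genes, Notch3 and Heyl were close to 0 in the members. The receptor Notch3 stood at 2.39, 0.618 and 10.8 CPM in Lgr5-Pappa2 cells, against 250.5, 258.3 and 738 CPM in other cells (log2 fold change -7.05 ± 0.68, edgeR adjusted p = 0.003). Heyl, a transcription factor switched on by Notch, stood at 5.17, 3.71 and 12.5 CPM in Lgr5-Pappa2 cells, against 405.7, 592.5 and 727 CPM in other cells (log2 fold change -6.48 ± 0.51, edgeR adjusted p = 0.0018). These were the 2 called genes of 15 in the Notch list, and the other 13 did not pass the test. Over all genes tested, 0.375% were called lower. The integrin subunit Itga8 stood at 5.96, 5.56 and 4.34 CPM in Lgr5-Pappa2 cells, against 486.8, 1151 and 239.7 CPM in other cells (log2 fold change -6.62 ± 0.55, edgeR adjusted p = 0.0025), and Npnt, a matrix protein bound by that integrin, stood at 6.36, 38.3 and 18.5 CPM in Lgr5-Pappa2 cells, against 361.3, 816 and 459.7 CPM in other cells (log2 fold change -4.93 ± 0.47, edgeR adjusted p = 0.003). Pdgfra stood at 1.99, 16.98 and 7.74 CPM in Lgr5-Pappa2 cells, against 85.1, 331.3 and 228.1 CPM in other cells (log2 fold change -4.82 ± 0.63, edgeR adjusted p = 0.013), so the marker that the name alveolar myofibroblast leans on was lower in the members of every mouse. Postn, the matrix protein periostin, had a log2 fold change of -5.51, and the axon guidance ligand Slit3 one of -5.38.

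Contractile genes were present in the members, and most missed the threshold against all other cells, of which 1063 of 1315 had 20 CPM or more of Myh11. For Myh11 20 CPM is a low bar, and fewer cells reached 500 CPM, as given by group below. Of 29 contractile protein genes 4 were called, all lower, where 0.375% of all genes tested were lower. The list had a median log2 fold change of -0.93, against -0.71 over all genes tested. Smooth muscle myosin, Myh11, stood at 100.6, 289.6 and 506.7 CPM in Lgr5-Pappa2 cells, against 2372, 2271 and 1549.9 CPM in other cells (log2 fold change -3.04 ± 0.52, edgeR adjusted p = 0.048). Actc1, the cardiac actin that lung smooth muscle also carries, stood at 68.8, 86.1 and 57.2 CPM in Lgr5-Pappa2 cells, against 1715, 2402 and 727 CPM in other cells, and the actin-binding proteins Cnn1 and Ldb3 had log2 fold changes of -4.21 and -5.75. The reporter gene Acta2 stood at 1783, 2382 and 1868 CPM in Lgr5-Pappa2 cells, against 3625, 5345 and 2293 CPM in other cells and was not called (log2 fold change -0.83 ± 0.21, edgeR adjusted p = 0.21), but it was called lower with no filter on low counts (edgeR adjusted p = 0.004), in cells thinned to 50000 counts (0.044), with at least 4 of 6 rule genes (0.0051) and without the 30 members that meet the Actc1 and Lgr6 gate described below (0.00017). Tagln, a small actin-binding protein, stood at 953, 671 and 868 CPM in Lgr5-Pappa2 cells, against 1379.6, 1738 and 794 CPM in other cells and was not called (log2 fold change -0.59 ± 0.31, edgeR adjusted p = 0.44). The second reporter gene, Cspg4, stood at 29.4, 36.6 and 132.9 CPM in Lgr5-Pappa2 cells, against 191.3, 196.3 and 236.9 CPM in other cells and was not called (log2 fold change -2.0 ± 0.58, edgeR adjusted p = 0.21). Among further genes given whatever their result, Eln (-1.05, edgeR adjusted p = 0.21), Igf1 (1.86, 0.052), Tcf21 (-6.33, 0.074), Lgr6 (1.71, 0.13), Fgf18 (3.23, 0.25), Stc1 (-0.85, 0.91), Pdgfrb (-0.88, 0.23) and Axin2 (0.03, 0.996) were not called either. Axin2, a feedback gene of Wnt signals through beta-catenin, stood at 0.398, 9.26 and 215.04 CPM in Lgr5-Pappa2 cells, against 14.04, 5.21 and 49.98 CPM in other cells, so the female mouse alone held more of it in its members than in its other cells by a wide margin.

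Of the 32 called genes named here, 30 kept the call when any 1 mouse was left out. Without male mouse 2, Tgfbr3 and Sfrp2 missed it (edgeR adjusted p 0.068 to 0.22). The count of calls over all genes was 1.43 times the full count when male mouse 1 was dropped, 1.25 times when male mouse 2 was dropped and 2.01 times when female mouse 1 was dropped. Without the mouse block 68 genes were called, 0.63 times the full count, and Lum, Aspn, Bmp5, Col3a1, Plat, Pamr1, Adamtsl2, Pdgfra and Myh11 missed the threshold (edgeR adjusted p 0.065 for Lum to 0.09 for Adamtsl2). Pdgfra also missed it in cells thinned to 50000 counts (0.34), with at least 4 of 6 rule genes (0.084) and without the 30 members that meet the Actc1 and Lgr6 gate (0.13). Igf1, Cspg4, Tcf21, Fgf18 and Eln passed it under 1 or more alternatives.

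**Figure D2:**
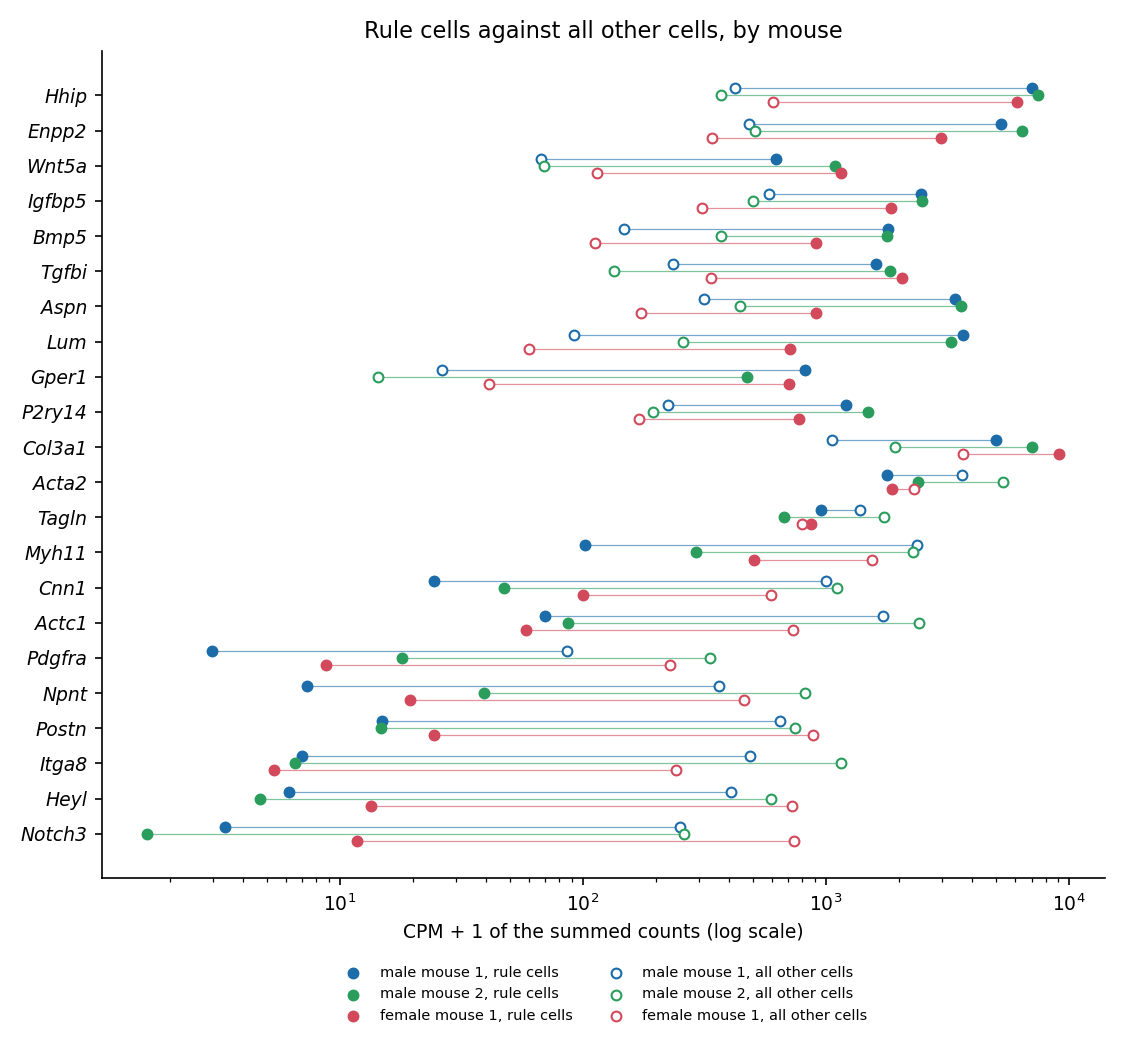
Level of 22 genes in the summed counts of rule cells, which are the Lgr5-Pappa2 cells (filled), and of all other cells (open) of each mouse, in CPM + 1 on a log scale, with a line joining the sums of 1 mouse. Hhip, Enpp2, Wnt5a and Gper1 lie to the right of their open points in all 3 mice, Notch3, Heyl and Itga8 far to the left, and for Tagln the 3 mice do not share a direction.

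Within the population, Hhip was high in every cell and Myh11 in some. Hhip was at 500 CPM or more in 61 of 61 Lgr5-Pappa2 cells. Myh11 had a median of 25.2 CPM over the same cells, with 2983 CPM in the highest, and was at 500 CPM or more in 11 of 61 cells. These 11 cells came from all 3 mice, 1 from male mouse 1, 6 from male mouse 2 and 4 from female mouse 1. Acta2 reached 20 CPM in all 61 cells, at a median of 1596 CPM (lowest 93.6, highest 8512), against a median of 4696 CPM in other cells. Over the 61 cells, Myh11 ran with Actc1 (Spearman's rho 0.53) and Actg2 (rho 0.46), the enteric actin, while Lgr5 ran weakly against Cspg4 (rho -0.35). These correlations describe cells that share 3 mice and their libraries, and detection at low levels enters them. Lgr6, a close relative of Lgr5 that also binds R-spondins, reached 20 CPM in 33 of 61 cells.

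Hhip, Enpp2, Aspn and Tgfbi, none of them in the rule, were also found together. The 4 genes and the level of 500 CPM were chosen after seeing the data, and all 4 had been called higher in these members. Their joint presence in members is thus a description and not independent of those calls. All 4 were at 500 CPM or more in 38 of 61 Lgr5-Pappa2 cells, in 22 of the 61 cells with 2 rule genes, and in 59 of the 1315 other cells. Of those 59 cells, 15 had 1 rule gene and 22 had none, so most of them do not lie just outside the rule. The combination was found in 40 of the 250 Actc1 and Lgr6 gated cells described next, and in 0 of the alveolar fibroblast-like and vascular smooth muscle-like cells.

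The members were next set against 3 groups of cells outside the rule. Alveolar fibroblast-like cells (93 cells) had at least 20 CPM in at least 3 of Col28a1, Slc36a2, Slc7a10, Ces1d, Tcf21 and Wnt2. Vascular smooth muscle-like cells (20.3% of all cells) had it in at least 3 of P2rx1, Stac, Kcna5, Smim5, Kcnab1 and Bmp3. The third gate, at least 2 of Lgr6, Sbspon, Bdkrb1 and Actc1 with fewer than 3 of the vascular genes, was meant for airway smooth muscle. Its 250 cells were mixed, since 100 of them had 20 CPM or more of Notch3, a vascular marker, and they are called Actc1 and Lgr6 gated cells. Of the members, 30 also met this last gate, mostly through Lgr6 and Actc1, and 0 met the other two. The 3 groups and the members were scaled together in a second fit of 12 sums, so the members' levels differ slightly from those above. Rule and gate genes were part of this fit and of its adjustment, and their results were left out of the calls and counts. Myh11 was at 500 CPM or more in 0 of 93 alveolar fibroblast-like cells, 77.6% of the gated cells and 99.3% of the vascular smooth muscle-like cells. Hhip was at 500 CPM or more in 6 of 93 alveolar fibroblast-like cells, 95 of 250 gated cells and 0 vascular smooth muscle-like cells.

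**Figure D3:**
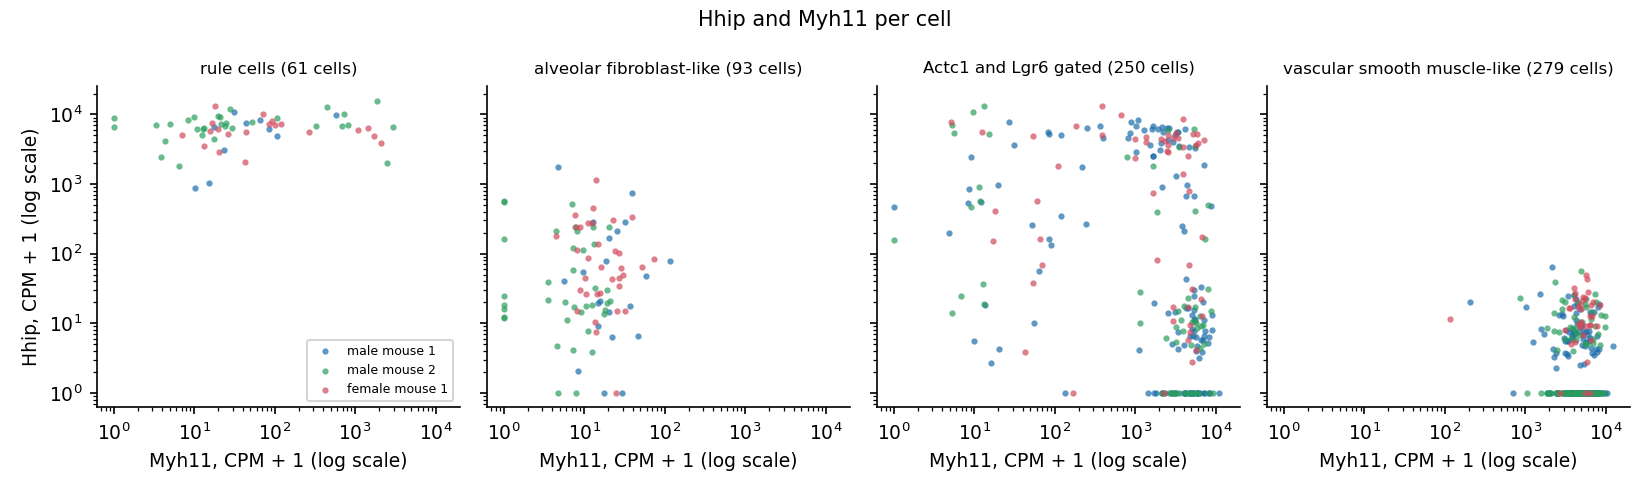
Hhip against Myh11 per cell (CPM + 1, log scales) in rule cells, which are the Lgr5-Pappa2 cells, and in the 3 comparison groups, coloured by mouse. The Lgr5-Pappa2 cells all lie at 873 CPM of Hhip or more, with Myh11 between 0 and 2983 CPM, and 11 of the 61 reach 500 CPM of Myh11.

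Against alveolar fibroblast-like cells, 640 of 15409 genes were called (4.15%), with 1.41% of all genes tested higher and 2.75% lower, and the median log2 fold change over these genes was -0.17. Of 29 contractile genes, 15 were higher in the members and 1 lower, with a median log2 fold change of 1.20. Acta2 stood at 1706, 2327 and 1834 CPM in Lgr5-Pappa2 cells, against 241.4, 391.2 and 265.4 CPM in alveolar fibroblast-like cells (log2 fold change 2.73 ± 0.14, edgeR adjusted p = 5.4e-06). Tagln stood at 911, 655.8 and 852 CPM in Lgr5-Pappa2 cells, against 118.7, 98.6 and 115.1 CPM in alveolar fibroblast-like cells (log2 fold change 2.87 ± 0.26, edgeR adjusted p = 0.00025). Myh11 stood at 96.2, 282.9 and 497.4 CPM in Lgr5-Pappa2 cells, against 17.7, 7.66 and 16.8 CPM in alveolar fibroblast-like cells (log2 fold change 4.26 ± 0.51, edgeR adjusted p = 0.0014). Lmod1, Myl9 and Pdlim3, which build or organise actin and myosin filaments, had log2 fold changes of 6.41, 2.08 and 7.60. In every mouse the members carried more of all these genes than the alveolar fibroblast-like cells.

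Hhip, Enpp2, Igfbp5 and Wnt5a were higher than in alveolar fibroblast-like cells too, in a comparison that shares its members with the one above. Hhip stood at 6696, 7284 and 5969 CPM in Lgr5-Pappa2 cells, against 116.4, 102.4 and 180.7 CPM in alveolar fibroblast-like cells (log2 fold change 5.75 ± 0.38, edgeR adjusted p = 3.2e-05) and Enpp2 at 5023, 6219.8 and 2928 CPM in Lgr5-Pappa2 cells, against 337.8, 343.6 and 243.3 CPM in alveolar fibroblast-like cells (log2 fold change 3.90 ± 0.16, edgeR adjusted p = 4.7e-06). Igfbp5 (4.38) and Wnt5a (2.92) were higher as log2 fold changes. So were the secreted protein Ccdc3 (9.21), the adhesion protein Cdh4 (9.15), the endothelin receptor Ednrb (6.82) and the acetylcholine receptor Chrm2 (7.14). Lgr6 stood at 340.04, 347.9 and 427.8 CPM in Lgr5-Pappa2 cells, against 1.19, 0.605 and 1.54 CPM in alveolar fibroblast-like cells (log2 fold change 8.41 ± 0.41, edgeR adjusted p = 5.4e-06), and it was the only called gene of 20 Wnt receptors and R-spondin genes. The tendon transcription factor Scx stood at 201.2, 33.02 and 55.6 CPM in Lgr5-Pappa2 cells and held 1 read in all alveolar fibroblast-like cells together, and Megf10, a surface receptor, had 124.8, 77.8 and 75.1 CPM in Lgr5-Pappa2 cells and 0 reads in the alveolar fibroblast-like cells.

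Pdgfra and a part of the matrix genes were lower than in alveolar fibroblast-like cells. Pdgfra stood at 1.9, 16.6 and 7.6 CPM in Lgr5-Pappa2 cells, against 625.4, 1118 and 915 CPM in alveolar fibroblast-like cells (log2 fold change -6.98 ± 0.52, edgeR adjusted p = 8e-05). Npnt (-6.60), Itga8 (-6.95), Fn1 (-6.04) and Heyl (-5.37) had negative log2 fold changes. All 5 called genes among 22 elastic fibre genes were lower, among them elastin, Eln, at 127.04, 752 and 1080.0 CPM in Lgr5-Pappa2 cells, against 1148, 2143 and 2746 CPM in alveolar fibroblast-like cells (log2 fold change -1.94 ± 0.35, edgeR adjusted p = 0.014). All 5 called genes among 27 collagen genes were lower too, including the basement membrane genes Col4a1 (-0.91) and Col4a2 (-1.32). Other lists held calls in both directions, where 1.41% of all genes tested were higher and 2.75% lower. Of 37 PDGF, FGF and VEGF genes 2 were higher and 6 lower, of 34 proteoglycan and matricellular genes 5 were higher and 7 lower, and of 38 matrix proteases and their inhibitors 3 were higher and 2 lower. Of lipid and retinoid genes 3 of 31 were higher and 5 lower. Of the 29 called genes named here, 18 kept the call when any 1 mouse was left out. Without male mouse 1, Wnt5a, Scx, Megf10, Col4a1, Col4a2, Igfbp6, Stc2 and Ptch1 missed it (edgeR adjusted p 0.06 to 0.17). Without male mouse 2, Myh11, Scx, Megf10, Eln, Col4a1, Col4a2, Wif1, Stc2 and Ptch1 missed it (edgeR adjusted p 0.059 to 0.21). Without female mouse 1, Myh11, Scx, Megf10, Eln, Col4a1, Col4a2, Igfbp6, Stc2 and Ptch1 missed it (edgeR adjusted p 0.051 to 0.20). The count of calls over all genes was 0.295 times the full count when male mouse 1 was dropped, 0.128 times when male mouse 2 was dropped and 0.26 times when female mouse 1 was dropped.

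Against the Actc1 and Lgr6 gated cells, 2.25% of 15411 genes were called, 68 higher (0.441%) and 1.81% of all genes tested lower, with a median log2 fold change of -0.27. Of the lower calls, 50 had at most 3 reads in all members together. Of the higher calls, 0 had so few in the gated cells, which held 64837333 counts in sum against 15444370 in the members. Of 28 contractile genes, 16 were lower in the members and none higher, at a median log2 fold change of -1.59. Actc1 is itself a contractile gene and part of the gate, so contractile levels in the gated cells are not independent of how they were chosen. The 30 members that meet the gate stayed among the members. Acta2 stood at 1706, 2327 and 1834 CPM in Lgr5-Pappa2 cells, against 4267, 7099 and 3731 CPM in the gated cells (log2 fold change -1.32 ± 0.13, edgeR adjusted p = 0.00095). Myh11 stood at 96.2, 282.9 and 497.4 CPM in Lgr5-Pappa2 cells, against 2877, 3422 and 2842 CPM in the gated cells (log2 fold change -3.52 ± 0.48, edgeR adjusted p = 0.005). Enpp2 stood at 5023, 6219.8 and 2928 CPM in Lgr5-Pappa2 cells, against 1039.5, 1127 and 760.4 CPM in the gated cells (log2 fold change 2.24 ± 0.15, edgeR adjusted p = 0.00014), Hhip at 6696, 7284 and 5969 CPM in Lgr5-Pappa2 cells, against 1450.1, 1131 and 2118 CPM in the gated cells (log2 fold change 2.19 ± 0.32, edgeR adjusted p = 0.0068) and Bmp5 at 1715, 1741 and 891 CPM in Lgr5-Pappa2 cells, against 229.3, 275.3 and 103.1 CPM in the gated cells (log2 fold change 2.89 ± 0.23, edgeR adjusted p = 0.00033). Wnt5a (2.65) and Igfbp5 (1.82) were higher as log2 fold changes. Itga8 (-6.89), Heyl (-6.02), Npnt (-4.49), Postn (-5.23), the potassium channel subunit Kcnmb1 (-7.74) and Notch3 (-6.27) were lower. Of the 16 called genes named here, 7 kept the call when any 1 mouse was left out. Without male mouse 1, Hhip, Wnt5a, Igfbp5, Sfrp2, Ptch1 and Cdon missed it (edgeR adjusted p 0.095 to 0.17). Without male mouse 2, Acta2, Myh11, Hhip, Wnt5a, Igfbp5, Notch3, Sfrp2, Ptch1 and Cdon missed it (edgeR adjusted p 0.076 to 0.26). Without female mouse 1, Wnt5a, Ptch1 and Cdon missed it (edgeR adjusted p 0.09 to 0.19). The count of calls over all genes was 0.176 times the full count when male mouse 1 was dropped, 0.0749 times when male mouse 2 was dropped and 0.349 times when female mouse 1 was dropped. With all mice it was 0.516 times the full count when gated cells with 20 CPM or more of Notch3 were removed, a choice made after seeing the data. Notch3 itself was then no longer called, which follows from removing cells by their Notch3 and is not a result. Without the 30 members that meet the same gate, the count of calls was 2.15 times the full count.

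Against vascular smooth muscle-like cells, 933 of 15409 genes were called (6.05%), 2.62% of all genes tested higher and 3.43% lower, with a median log2 fold change of -0.25. Hhip stood at 6696, 7284 and 5969 CPM in Lgr5-Pappa2 cells, against 3.48, 4.47 and 12.5 CPM in vascular smooth muscle-like cells (log2 fold change 10.16 ± 0.46, edgeR adjusted p = 3.1e-06), and no vascular smooth muscle-like cell reached 500 CPM of it. Enpp2 stood at 5023, 6219.8 and 2928 CPM in Lgr5-Pappa2 cells, against 206.8, 222.9 and 160.9 CPM in vascular smooth muscle-like cells (log2 fold change 4.54 ± 0.17, edgeR adjusted p = 1.4e-06). Wnt5a stood at 591.8, 1062 and 1134 CPM in Lgr5-Pappa2 cells, against 2.19, 4.6 and 3.92 CPM in vascular smooth muscle-like cells (log2 fold change 8.01 ± 0.55, edgeR adjusted p = 3.6e-05). The growth factor Igf1 stood at 755, 878 and 276.7 CPM in Lgr5-Pappa2 cells, against 2.11, 1.25 and 2.48 CPM in vascular smooth muscle-like cells (log2 fold change 8.23 ± 0.59, edgeR adjusted p = 5.4e-05). The fibroblast growth factors Fgf7 (6.44) and Fgf10 (8.77), the proprotein convertase Pcsk5 (10.55), angiotensinogen, Agt (10.51), and the axon guidance genes Slit2 (5.66) and Robo2 (8.93) had positive log2 fold changes. Of 28 collagen genes 10 were higher and 1 lower, with Col3a1 at 4782, 6882 and 8925 CPM in Lgr5-Pappa2 cells, against 395.9, 732 and 1978 CPM in vascular smooth muscle-like cells (log2 fold change 2.97 ± 0.26, edgeR adjusted p = 0.00015). Of 34 proteoglycan and matricellular genes, 12 were higher and 6 lower.

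Most contractile genes and some Notch genes were lower than in vascular smooth muscle-like cells. Of 29 contractile genes 24 were lower and none higher, and of 13 Notch genes 3 were lower and none higher. Over all genes tested, 2.62% were higher and 3.43% lower. The contractile list had a median log2 fold change of -1.91, against -0.25 over all genes tested. Acta2 stood at 1706, 2327 and 1834 CPM in Lgr5-Pappa2 cells, against 5142, 10170.0 and 6117 CPM in vascular smooth muscle-like cells (log2 fold change -1.82 ± 0.13, edgeR adjusted p = 6.2e-05) and Myh11 at 96.2, 282.9 and 497.4 CPM in Lgr5-Pappa2 cells, against 4222, 4928 and 5355 CPM in vascular smooth muscle-like cells (log2 fold change -4.16 ± 0.50, edgeR adjusted p = 0.00085). Notch3 stood at 2.28, 0.603 and 10.6 CPM in Lgr5-Pappa2 cells, against 449.6, 518.8 and 1210.4 CPM in vascular smooth muscle-like cells (log2 fold change -7.78 ± 0.86, edgeR adjusted p = 0.0005), and Heyl (-7.28), Itga8 (-7.56), the laminin-binding integrin subunit Itga7 (-7.86) and the calcium-activated chloride channel Ano1 (-7.52) were lower as log2 fold changes. Of 54 mesenchymal transcription factors 10 were lower and 3 higher, with Epas1, a hypoxia-inducible factor, lower (-3.0) and Tbx4 (2.88) and Gata5 (3.76) higher. The forkhead factor Foxc2 was lower too, with 1 read in all members together, against 32.5, 29.6 and 71.1 CPM in vascular smooth muscle-like cells. Of the 31 called genes named here, 22 kept the call when any 1 mouse was left out. Without male mouse 1, Foxc2, Rspo3, Sfrp1, Stc2, Cdon and Boc missed it (edgeR adjusted p 0.057 to 0.19). Without male mouse 2, Tbx4, Foxc2, Rspo3, Wif1, Sfrp1, Stc2, Cdon and Gas1 missed it (edgeR adjusted p 0.059 to 0.24). Without female mouse 1, Foxc2, Rspo3, Stc2, Cdon and Gas1 missed it (edgeR adjusted p 0.093 to 0.18). The count of calls over all genes was 0.383 times the full count when male mouse 1 was dropped, 0.228 times when male mouse 2 was dropped and 0.457 times when female mouse 1 was dropped.

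**Figure D4:**
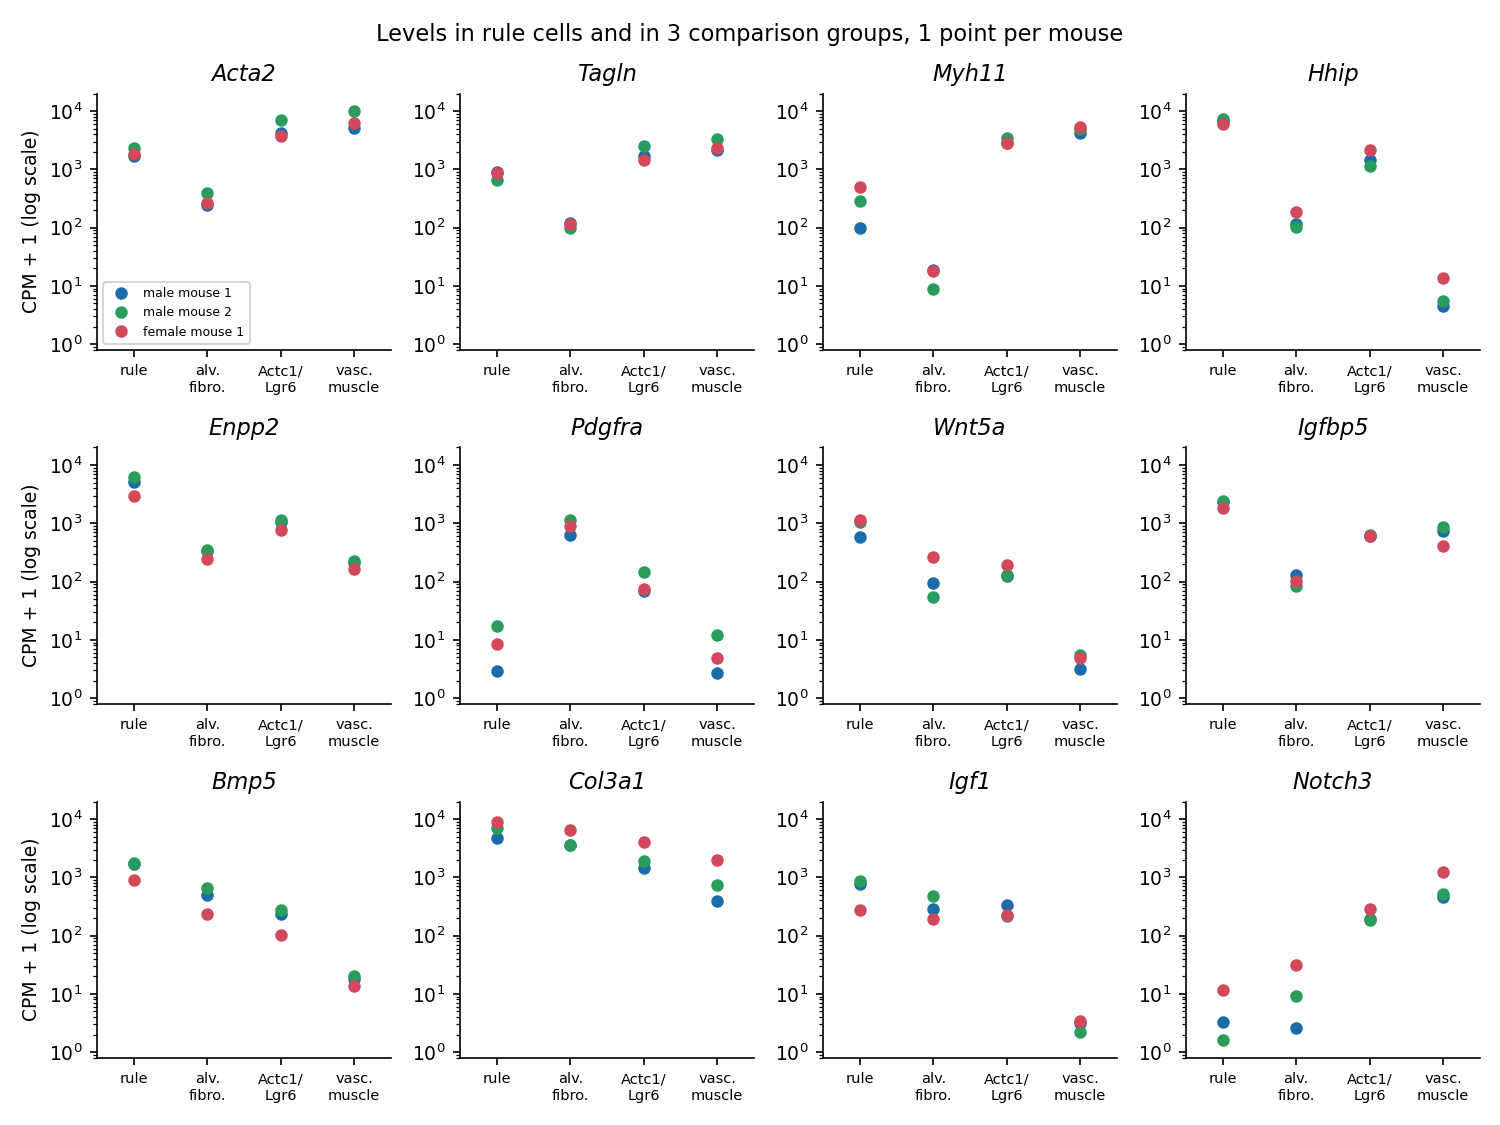
Level of 12 genes (CPM + 1 of the summed counts, log scale) in rule cells, which are the Lgr5-Pappa2 cells, and in the 3 comparison groups, with 1 point per mouse. Acta2, Tagln and Myh11 in Lgr5-Pappa2 cells lie between the alveolar fibroblast-like and the vascular smooth muscle-like cells in every mouse, while Hhip and Enpp2 are highest in Lgr5-Pappa2 cells.

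In every mouse the members stood above the alveolar fibroblast-like cells and below both the gated and the vascular smooth muscle-like cells for Acta2, Tagln and Myh11. The gated cells were chosen in part by Actc1, a contractile gene. Hhip stood in the order Lgr5-Pappa2 cells, Actc1 and Lgr6 gated cells, alveolar fibroblast-like cells and vascular smooth muscle-like cells in every mouse.

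The pathways of the rule genes were counted in each of the 4 comparisons, which share their members. Over all genes tested, 0.642% were called against all other cells and 4.15% against alveolar fibroblast-like cells. The shares were 2.25% against gated cells and 6.05% against vascular smooth muscle-like cells. The share against all other cells comes from a separate fit with fewer sums than the fit of 12 sums behind the other 3. The shares of the 2 fits are thus not comparable with each other. A list with a count near these shares says nothing particular about its pathway. Among 20 Wnt receptors, R-spondins and their receptors (19 against gated cells), 0 genes were called against all other cells and 0 against gated cells. Against alveolar fibroblast-like cells 1 was called (Lgr6, higher), and 1 against vascular smooth muscle-like cells (Rspo3, an R-spondin, lower). Rspo3 had 0 reads in Lgr5-Pappa2 cells, against 14.2, 4.93 and 9.09 CPM in vascular smooth muscle-like cells. Among 11 target and feedback genes of Wnt signals, 0 were called against all other cells, 2 were lower than in alveolar fibroblast-like cells, 1 lower than in gated cells, and 1 higher and 1 lower than in vascular smooth muscle-like cells. Of 10 secreted Wnt inhibitors tested against all other cells, Sfrp2 was called, as lower (-6.22). Of the 7 tested in the other comparisons, Wif1 was higher than in alveolar fibroblast-like cells (7.95), and Sfrp2 (-7.47) and 1 more were lower than in gated cells. Against vascular smooth muscle-like cells 5 of the 7 were called, 3 higher and 2 lower, with Dkk3 (1.91), Wif1 (6.23) and Sfrp1 (6.40) higher. Among 18 genes of the IGF axis, Igfbp5 was called higher in all 4 comparisons. Igfbp6 was lower than in alveolar fibroblast-like cells (-3.27) and higher than in vascular smooth muscle-like cells (4.16), where Igf1 was higher too. Stc2, an inhibitor of pappalysin proteases, was lower than in alveolar fibroblast-like cells (-5.48) and than in vascular smooth muscle-like cells (-4.52). Among 12 hedgehog pathway genes Hhip was higher in all 4 comparisons. The hedgehog receptor Ptch1 was lower than in alveolar fibroblast-like cells (-3.57) and than in gated cells (-4.20). Cdon, a co-receptor for hedgehog ligands, was lower than in gated cells (-5.23) and than in vascular smooth muscle-like cells (-5.10), while the co-receptors Gas1 (2.31) and Boc (2.98) were higher than in vascular smooth muscle-like cells. Of 32 immediate early and heat shock genes, which rise when tissue is dissociated, 0 were called against all other cells, 1 was higher and 1 lower than in alveolar fibroblast-like cells, 1 was higher than in gated cells and 4 were higher than in vascular smooth muscle-like cells. Their part in these results was not tested.

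**Figure D5:**
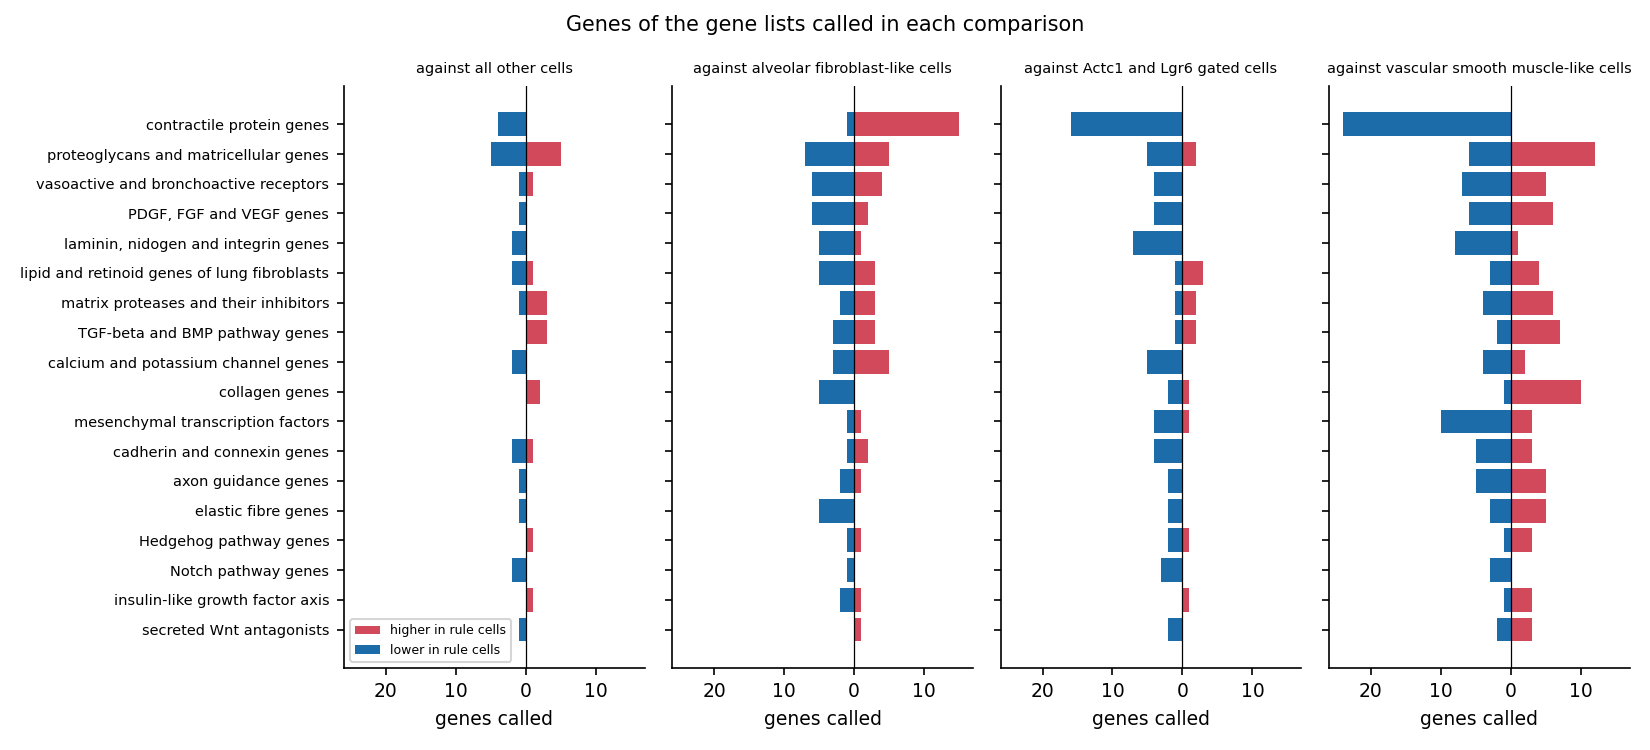
Number of genes of each list called higher (right) or lower (left) in rule cells, which are the Lgr5-Pappa2 cells, in each of the 4 comparisons. The contractile list turns from 15 higher and 1 lower against alveolar fibroblast-like cells to 24 lower against vascular smooth muscle-like cells.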

How the data were processed

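The deposited table holds raw read counts per gene and cell, made by the authors. Tools named in the submitters' processing notes are Bowtie, Bowtie2, bcl2fastq, Subread and featureCounts, and the builds named are mm10 and GRCm38, without versions or roles. Handling of strand, shared reads and duplicates is not stated, so overlapping or antisense genes and near-identical family members cannot be told apart. Of 46517 genes, 46005 took a symbol and coordinates from the GENCODE annotation of GRCm38, and the 512 others held 0.184% of counts. No cell was filtered out, no doublet caller was run on these sorted single cells, and no cells had identical counts.

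Counts were summed per group and mouse and fitted with edgeR 4.0.16 in R 4.3.3 (TMM factors, filterByExpr, quasi-likelihood test, two-sided, mouse as a block, Benjamini-Hochberg adjustment over all genes fitted, calls at 0.05). Members and comparison groups came from the same animals, and their deviations from the group means correlated within each mouse, between 0.108 and 0.371. The p-values measure the spread between these 3 mice. Rule and gate genes were fitted and entered the adjustment, and their results were then left out of the calls and counts. The genes fitted were 16820 against all other cells and 15421 in the other comparisons. The number of genes tested, as given above, leaves out the rule and gate genes. DESeq2 1.42.0, other scaling, filters, gates and depths were tried as alternatives. Plots used matplotlib 3.10.9 under Python 3.11.15.

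Genes were named by a rule: the largest fold changes among called genes that moved the same way in all 3 mice with a mean of at least 20 CPM, the called genes of each list with the smallest adjusted p, and a set given against all other cells whatever the result. The text prints part of them. The members, lists and tests were chosen with earlier results of these data known.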

Additional observations from a re-analysis of the deposited data

Results flagged for a closer look

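Tagln against all other cells was flagged because both male mice differed one way and the female mouse the other, and this difference was not tested. The log2 ratio of Lgr5-Pappa2 cells to other cells, with 1 CPM added to each level, was -0.53 in male mouse 1 (952.8 CPM in Lgr5-Pappa2 cells, 1380 CPM in other cells), -1.37 in male mouse 2 (671.4 and 1738 CPM) and 0.13 in female mouse 1 (867.7 and 794.2 CPM). Tagln levels in the members of the 3 mice were close to each other, and the other cells of the female mouse had the lowest level of the other cells. Sex, mouse and plate cannot be told apart.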

How the results depend on the processing

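Counts of calls are given as multiples of the count reported above for the same comparison. Against all other cells the multiple was 1.66 without a filter on low counts, 24.2 with DESeq2's test (2618 genes, of which 5.42% were higher), 0.63 with no replicate block (pairing by mouse removed), 0.62 without the 30 members that meet the Actc1 and Lgr6 gate, and 1.25 to 2.01 with 1 mouse left out. Against alveolar fibroblast-like cells it was 3.46 with DESeq2's test (2215 genes), 0.591 in cells thinned to 50000 counts and 0.128 to 0.295 with 1 mouse left out. Against the Actc1 and Lgr6 gated cells it was 5.6 with DESeq2's test (1943 genes), 1.81 with at least 4 of 6 rule genes, 2.15 without the 30 members that meet that gate, 0.516 without gated cells that carry Notch3 and 0.0749 to 0.349 with 1 mouse left out. Against vascular smooth muscle-like cells it was 2.86 with DESeq2's test (2672 genes) and 0.228 to 0.457 with 1 mouse left out. DESeq2's calls held 87.96%, 99.8%, 99.4% and 99.5% of edgeR's calls in these 4 comparisons in the order given. The number of members was 26 with at least 4 of 6 rule genes and 31 without those that meet the Actc1 and Lgr6 gate. In cells thinned to 50000 counts, where 1 read is 20 CPM, it rose to 76, with all 61 members among them. The cause of these changes was not tested. Settings that leave out a mouse or members hold fewer samples or cells, and calls rose under some of them and fell under others. DESeq2's size factors moved the median log2 fold change of all genes against all other cells by 0.13.

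The log2 fold changes that turned sign belong to genes that were not called. Axin2 was at -0.073 with no filter, -0.0067 with 50 CPM in the rule, -0.00033 in cells with at least 100000 counts, -0.50 without the 30 members that meet the gate, and -1.88 to 1.47 with 1 mouse left out. Stc1 was at 0.25 with no replicate block and -2.75 to 0.60 with 1 mouse left out. Lgr6 was at -1.18 without the 30 members that meet the gate. Alternatives that drop other cells with 2 rule genes, members that meet the gate or gated cells with Notch3 were chosen after seeing the data. So was the combination of Hhip, Enpp2, Aspn and Tgfbi at 500 CPM.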
